A study of Mus musculus with 6 samples.

Results

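The transcripts described here are those of 10 immediate early genes of mouse thymocytes, the T cell precursors that make up most of the thymus: Nr4a1, Nr4a3, Egr1, Egr2, Egr3, Fos, Fosb, Jun, Junb and Ier2. They were taken by symbol from a table of 55536 Ensembl genes, and each symbol matched 1 row. All 10 passed the filter on low counts that left 18690 genes for testing. RNA of steady-state thymocytes was sequenced from mice without the alpha chain of the interleukin-3 receptor (Il3ra-/-, 3 libraries) and from wildtype mice (Il3ra+/+, 3 libraries), with 1 mouse per library and no treatment named. No source used here states the strain, age or sex of the mice, or the deleted part of the allele, and sex is read from transcripts below. Values are CPM, the counts of a gene scaled to a common library size, with sizes adjusted by the trimmed mean of M-values (TMM). With 1 mouse per library, p-values measure the spread between these mice.

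Immediate early genes are transcribed within minutes of a stimulus from regulators that already lie in the cell, without new protein synthesis. In thymocytes, engagement of the T cell receptor raises the orphan nuclear receptors Nr4a1 (Nur77) and Nr4a3 and the zinc finger factors Egr2 and Egr3, and these act in positive and negative selection. The subunits of the transcription factor AP-1 (Fos, Fosb, Jun and Junb) also respond to growth factors, to stress and to the handling of tissue, and Egr1 and the nuclear protein Ier2 respond to both kinds of signal. The 10 genes were therefore read as 4 receptor-signal genes, 4 AP-1 genes, and Egr1 with Ier2.

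Some facts of the libraries bear on every value below. Total counts were 59135254 to 82684219 in the libraries labelled knockout and 55747682 to 66534218 in wildtype. Counts of Il3ra, the targeted gene, were 481, 673 and 514 in the labelled knockout libraries, against 465, 376 and 399 in those of wildtype (fold 1.14, edgeR adjusted p = 0.585), so it was not lower where the label says that it is deleted. A transcript that lacks only part of the gene would still be counted, so the gene does not check the genotype, and "labelled knockout" stands for that group throughout. Replicate 1 of each genotype also stood apart. Xist, the RNA that coats an inactive X chromosome, had 128236 counts in the first of the labelled knockout libraries and 88078 in the first of wildtype, with 8 to 57 counts in the other 4. Ddx3y, a gene of the Y chromosome, had 3 and 1 counts in these first libraries and 6476 to 11226 in the other 4. By these transcripts replicate 1 of each genotype was female and the other 4 libraries male. Fits without replicate 1 of each genotype therefore hold the male libraries alone. The defining markers of thymocytes were present in every library. The sum of 13 such markers (among them Cd4, Cd8a, Rag1 and Bcl11b) was 13839 to 14527 CPM in the labelled knockout and 15315 to 17010 CPM in wildtype, without overlap. In bulk samples fewer cells of a type and less RNA per cell cannot be told apart.

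Per kilobase of exon, the 10 transcripts kept 1 order in each genotype: Junb, Nr4a1, Ier2, Egr1, Jun, Fos, Egr2, Nr4a3, Egr3, Fosb. Junb, at the top of it, had a level of 34.1 ± 7.98 CPM per kilobase in the labelled knockout and 38.4 ± 6.72 CPM per kilobase in wildtype (SD, n = 3 each). Nr4a1 followed at 22.05 ± 3.75 and 31.6 ± 3.38 CPM per kilobase, and Fosb came last at 1.34 ± 1.06 and 0.856 ± 0.384 CPM per kilobase, labelled knockout first in each pair. Most neighbours in this order overlapped in their libraries. The ranges of Egr1 and Jun, and those of Egr2 and Nr4a3, were apart in each genotype. The ranges of Junb and Nr4a1 were apart in the labelled knockout, and those of Egr3 and Fosb in wildtype. In wildtype, the mean CPM of Nr4a1 was above that of 90.2% of tested genes, and the mean CPM of Fosb above that of 43.8%.

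Upstream sequences of these genes are shown because Fos and Fosb varied together across libraries and Nr4a1 was nearest to Nr4a3, as described further on. Of the 10 genes, 7 had an entry in the RefSeq promoter table of GRCm38.p6 (Nr4a1, Nr4a3, Egr2, Fos, Fosb, Jun and Junb), and the 250 bases before each start were searched on both strands. The letters TGACG, the core of the cyclic AMP response element, were found at least once in 6 of the 7, against 19.8% of all genes in that table. The gene without them was Jun. The full palindrome TGACGTCA was found in none of the 7 (1.77% of all genes), and neither was the AP-1 motif TGANTCA (7.82%). The CArG box, the motif of serum response factor, was found in Egr2 alone (1.62% of all genes), where 4 of the 5 windows before annotated starts held it (3 of these windows overlap and share 1 match, and the fourth holds another). The EGR motif GCGNGGGCG was found in Nr4a1 and Fosb (5.33% of all genes). A match is a description of letters and was not tied to binding. Bases further upstream were not searched, so a motif absent here, such as the CArG box in Fos, may lie beyond the window. The stretches below run 5′ to 3′ up to the RefSeq start or the first GENCODE exon, with TGACG on either strand and the CArG box in capitals. They are Nr4a1 (chr15:101266596-101266845, plus strand), Nr4a3 (chr4:48045055-48045152, plus strand), Egr2 (chr10:67537619-67537868, plus strand), Fos (chr12:85473640-85473889, plus strand) and Fosb (chr7:19310052-19310295, minus strand).
Nr4a1: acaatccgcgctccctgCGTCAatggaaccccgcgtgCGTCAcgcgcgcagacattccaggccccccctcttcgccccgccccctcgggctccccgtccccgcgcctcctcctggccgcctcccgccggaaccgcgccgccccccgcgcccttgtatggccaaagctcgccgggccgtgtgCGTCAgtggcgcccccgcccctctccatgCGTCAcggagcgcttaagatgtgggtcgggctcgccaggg
Nr4a3: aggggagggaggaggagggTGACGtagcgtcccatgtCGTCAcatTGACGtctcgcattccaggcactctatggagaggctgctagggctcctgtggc
Egr2: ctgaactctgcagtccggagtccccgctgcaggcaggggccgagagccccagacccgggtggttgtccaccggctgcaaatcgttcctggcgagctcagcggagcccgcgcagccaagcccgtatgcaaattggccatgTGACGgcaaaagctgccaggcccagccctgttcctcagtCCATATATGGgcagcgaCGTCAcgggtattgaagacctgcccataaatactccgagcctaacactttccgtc
Fos: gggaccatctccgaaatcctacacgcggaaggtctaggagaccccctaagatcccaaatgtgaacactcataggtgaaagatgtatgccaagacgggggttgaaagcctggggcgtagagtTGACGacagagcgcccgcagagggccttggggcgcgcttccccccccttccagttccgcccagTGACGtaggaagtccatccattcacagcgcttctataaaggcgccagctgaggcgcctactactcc
Fosb: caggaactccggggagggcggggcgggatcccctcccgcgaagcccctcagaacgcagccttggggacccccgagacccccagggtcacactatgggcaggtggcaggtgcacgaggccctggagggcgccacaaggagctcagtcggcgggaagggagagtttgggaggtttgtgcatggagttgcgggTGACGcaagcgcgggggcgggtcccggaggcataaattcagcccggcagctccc
The Nr4a1 and Egr2 stretches lie within the longer spans that GENCODE gives these genes. The Nr4a1 stretch holds 4 copies of TGACG, at 233, 213, 69 and 40 bases before the start (first base of each match). The Nr4a3 window holds 4 as well, of which 3 lie in the printed stretch. Fos holds 2, at 129 and 66 bases before the start, and Fosb holds 1, at 60 bases.

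Of the 10 genes, Nr4a1 was the one whose genotypes did not overlap. Nr4a1 (ENSMUSG00000023034, chromosome 15, 101254269 to 101274795, plus strand) encodes an orphan nuclear receptor whose level follows the strength of the T cell receptor signal. It had 67.1, 92.2 and 72.8 CPM in labelled knockout replicates 1 to 3, against 98.8, 112 and 122 CPM in wildtype replicates 1 to 3. The highest labelled knockout library (replicate 2) lay just below the lowest wildtype library (replicate 1). The fitted fold was 0.697 with a 95% interval of 0.573 to 0.848, not adjusted for the number of genes. Over all genes, edgeR's quasi-likelihood test did not call it (Benjamini-Hochberg adjusted p = 0.151), in which 216 was its rank by p among 18690 genes. Nr4a1 did pass by DESeq2 (adjusted p = 0.0119), by edgeR without the filter on low counts (adjusted p = 0.000376) and by edgeR without replicate 1 of each genotype (adjusted p = 0.0498). These settings passed many more genes in all (587, 840 and 762, in that order) than the edgeR test above (17), so the passes are not particular to Nr4a1. Nr4a1 did not pass by limma-voom (adjusted p = 0.203), and over all alternatives the adjusted p ran from 0.000376 to 0.634. In relation to the summed thymocyte markers, Nr4a1 gave 4.62, 6.60 and 5.26 CPM per 1000 marker CPM in the labelled knockout, against 6.45, 6.57 and 7.49 in wildtype. On that ratio the genotypes overlapped, since labelled knockout replicate 2 reached wildtype replicates 1 and 2. The part of thymocyte content in the Nr4a1 difference was not tested beyond this ratio.

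**Figure D1:**
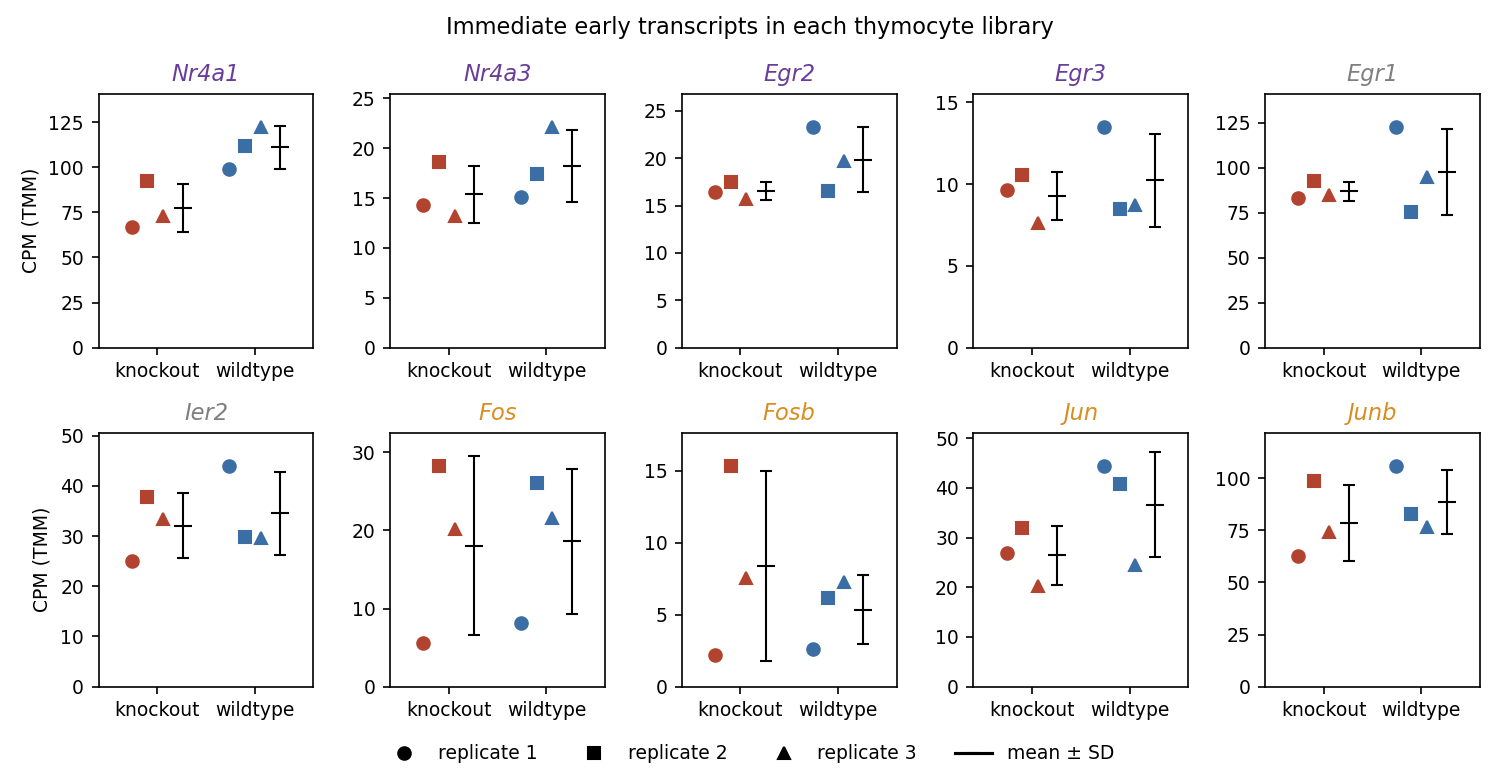
CPM of each of the 10 genes (vertical axis, from 0) in 3 labelled knockout libraries (red) and 3 wildtype libraries (blue), with the symbol giving the replicate number and black bars the mean ± SD. Nr4a1 is the panel in which the genotypes do not overlap, and in the Fos and Fosb panels replicate 1 (circles) is lowest in each genotype.

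Counted together, 9 of the 10 genes were fitted lower in the labelled knockout, with Fosb as the exception, where 48.8% of all tested genes were fitted lower. Of the 10, 0 passed edgeR's quasi-likelihood test after Benjamini-Hochberg adjustment over all genes, in which 0.091% of tested genes passed (0.0749% lower and 0.0161% higher in the labelled knockout). At an unadjusted p under 0.05, 1 of the 10 was lower (Nr4a1) and 0 higher, where 6.6% of tested genes were lower and 8.01% higher. DESeq2 called 1 of the 10 (Nr4a1), beside 587 of 33265 genes in all. Limma-voom called 0 of the 10, beside 14 of 18690 genes. Groups without overlap, lower in the labelled knockout, were found in 1 of 10 members and in 9.38% of tested genes. The shares of members called by edgeR and without overlap were near the background, and the share fitted lower was above it. The count of 9 fitted lower rests on replicate 1, since 4 of the 10 were fitted lower when replicate 1 of each genotype was left out.

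Nr4a3 (ENSMUSG00000028341, chromosome 4, 48045153 to 48086447, plus strand), a paralogue of Nr4a1 with overlapping roles in thymocyte deletion, had 14.3, 18.6 and 13.2 CPM in labelled knockout replicates 1 to 3, against 15.1, 17.4 and 22.2 CPM in wildtype replicates 1 to 3. The genotypes overlapped, with wildtype replicate 3 highest of all. Its fold was 0.844 (95% interval 0.652 to 1.09; edgeR adjusted p = 0.536). Nr4a2, the remaining family member, was at 2.45 ± 0.433 CPM in the labelled knockout and 3.00 ± 0.343 CPM in wildtype (SD, n = 3 each; edgeR adjusted p = 0.567). The ratio of Nr4a1 to Nr4a3 in CPM was 4.68, 4.96 and 5.53 in the labelled knockout and 6.55, 6.42 and 5.53 in wildtype, so both replicates 3 had nearly the same ratio.

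Egr2 and Egr3, which lie downstream of calcineurin and are needed for selection and for survival of selected cells, overlapped between the genotypes. Egr2 (ENSMUSG00000037868, chromosome 10, 67535475 to 67542188, plus strand) had 16.4, 17.5 and 15.7 CPM in labelled knockout replicates 1 to 3, against 23.3, 16.5 and 19.7 CPM in wildtype replicates 1 to 3. Its 3 labelled knockout libraries lay close together, with a coefficient of variation of 5.52%, against 17.2% in wildtype. The fold was 0.833 (95% interval 0.678 to 1.02; edgeR adjusted p = 0.399). Egr3 (ENSMUSG00000033730, chromosome 14, 70077203 to 70082614, plus strand) had 9.61, 10.5 and 7.65 CPM in labelled knockout replicates 1 to 3, against 13.5, 8.46 and 8.70 CPM in wildtype replicates 1 to 3. Wildtype replicate 1 stood above the other 5 libraries, and the other 2 wildtype libraries lay within the labelled knockout range. The Egr3 fold was 0.907 (95% interval 0.669 to 1.23; edgeR adjusted p = 0.784), and without wildtype replicate 1 the log2 fold changed sign to 0.11. The median log2 fold of the 4 receptor-signal genes was -0.25, beside 0.01 over all tested genes. That median stayed between -0.35 and -0.19 over all alternatives.

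Egr1 (ENSMUSG00000038418, chromosome 18, 34859823 to 34864984, plus strand), an early growth response factor, had 83.04, 92.97 and 84.996 CPM in labelled knockout replicates 1 to 3, against 123, 75.6 and 95.01 CPM in wildtype replicates 1 to 3. The wildtype libraries spanned the labelled knockout range on each side. Its fold was 0.889 (95% interval 0.706 to 1.12; edgeR adjusted p = 0.646), and the log2 fold was 0.029 without wildtype replicate 1. Ier2 (ENSMUSG00000053560, chromosome 8, 84661331 to 84662852, minus strand), a single-exon gene of a nuclear protein, had 25.04, 37.8 and 33.4 CPM in labelled knockout replicates 1 to 3, against 44.0, 29.8 and 29.7 CPM in wildtype replicates 1 to 3. Replicate 1 was the lowest labelled knockout library and the highest wildtype library. The Ier2 fold was 0.930 (95% interval 0.699 to 1.24; edgeR adjusted p = 0.833). Its log2 fold turned to 0.048 without labelled knockout replicate 1, to 0.11 without wildtype replicate 1 and to 0.26 without both (adjusted p = 0.156).

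Fos and Fosb, partners of the Jun proteins in the AP-1 dimer, varied most among the 10 genes, and they varied between mice of 1 genotype. Fos (ENSMUSG00000021250, chromosome 12, 85473890 to 85477273, plus strand) had 5.65, 28.3 and 20.2 CPM in labelled knockout replicates 1 to 3, against 8.17, 26.0 and 21.6 CPM in wildtype replicates 1 to 3. Replicate 1 was lowest in each genotype and the other 4 libraries lay together. The highest labelled knockout library exceeded the lowest 5.01-fold, and the same ratio in wildtype was 3.18. These ratios were larger than those of 97.3% of tested genes in the labelled knockout and 96.5% in wildtype. The Fos fold was 0.972 with an interval from 0.233 to 4.06 (edgeR adjusted p = 0.987), so the interval includes changes of either sign. Without labelled knockout replicate 1 the log2 fold was 0.38, and without wildtype replicates 2 or 3 it was 0.28 and 0.082. Without replicate 1 of each genotype it was 0.026 (edgeR adjusted p = 0.938).

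Fosb (ENSMUSG00000003545, chromosome 7, 19302696 to 19310051, minus strand) followed the same libraries. It had 2.21, 15.3 and 7.53 CPM in labelled knockout replicates 1 to 3, against 2.65, 6.13 and 7.25 CPM in wildtype replicates 1 to 3. Replicate 1 was again lowest in each genotype, and labelled knockout replicate 2 was highest of all. Its fold of 1.57 (95% interval 0.365 to 6.75; edgeR adjusted p = 0.762) turned to a log2 fold of -0.13 without labelled knockout replicate 2. The biological coefficient of variation that edgeR fitted was 62.6% for Fos and 65.1% for Fosb. It was 12.6% to 21.2% for the other 8 members, with a median of 16.3% over all tested genes.

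Jun did not follow Fos, and Junb followed the order of Fos in the labelled knockout libraries but not in those of wildtype. Jun (ENSMUSG00000052684, chromosome 4, 95049034 to 95052222, minus strand) had 27.0, 32.0 and 20.3 CPM in labelled knockout replicates 1 to 3, against 44.5, 40.8 and 24.5 CPM in wildtype replicates 1 to 3. Replicate 3 was lowest in each genotype and wildtype replicate 1, low in Fos, was the highest Jun library. The Jun fold was 0.722 (95% interval 0.490 to 1.07; edgeR adjusted p = 0.422). Jun passed in edgeR without the filter on low counts (adjusted p = 0.0220), and its adjusted p over all alternatives reached 0.855. Junb (ENSMUSG00000052837, chromosome 8, 84974484 to 84978718, minus strand), which restrains Jun activity, had 62.6, 98.6 and 74.3 CPM in labelled knockout replicates 1 to 3, against 106, 82.8 and 76.6 CPM in wildtype replicates 1 to 3. The genotypes overlapped and the fold was 0.888 (95% interval 0.682 to 1.16; edgeR adjusted p = 0.686). Exons of Junb overlap those of Prdx2 on the opposite strand over 173 bases, and those of Jun overlap the antisense RNA Junos over 232 bases. The strand setting of the counting is not given, so reads of Junb and Prdx2 in that overlap cannot be told apart (33333 and 40086 counts in all 6 libraries together). Junos had 109 counts in all 6 libraries together, against 12342 for Jun.

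**Figure D2:**
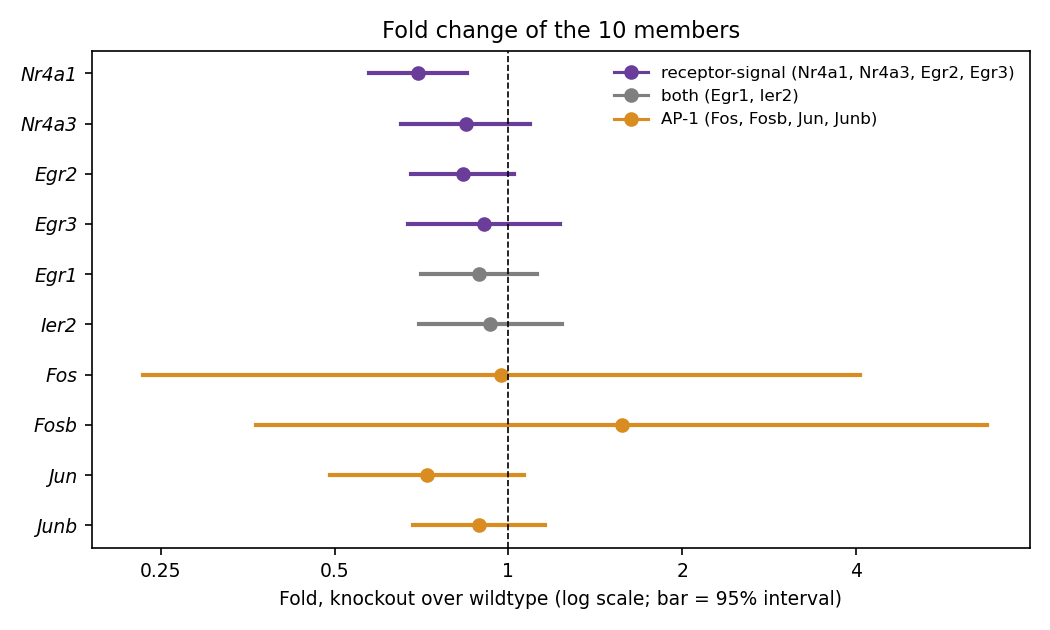
Fitted fold of each gene, labelled knockout over wildtype (horizontal axis, log scale), with 95% intervals not adjusted for the number of genes and colours for the 3 groups of members. The intervals of Fos (0.233 to 4.06) and Fosb (0.365 to 6.75) are the widest, and that of Nr4a1 (0.573 to 0.848) does not reach 1.

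The Fos share of the AP-1 subunits was low in replicate 1 of each genotype. Of the summed CPM per kilobase of the 4 subunits, Fos held 6.25%, 17.9% and 17.7% in labelled knockout replicates 1 to 3, against 5.44%, 18.2% and 17.9% in wildtype replicates 1 to 3. In 4 libraries of both genotypes the Fos share lay between 17.7% and 18.2%, and in both replicates 1 it was 6.25% or less. The ratio of Fos to Jun in CPM was 0.209, 0.883 and 0.996 in the labelled knockout, against 0.184, 0.638 and 0.881 in wildtype. The ratio of Fosb to Fos in CPM was 0.392, 0.543 and 0.373 in the labelled knockout, against 0.324, 0.236 and 0.335 in wildtype. Among the several ratios read, the genotypes did not overlap on this ratio, with the labelled knockout narrowly higher (lowest 0.373, against a wildtype highest of 0.335). The difference was not tested, and no share over other gene pairs was computed. Jun held 22.02%, 14.9% and 13.1% of the sum in labelled knockout replicates 1 to 3, against 21.8%, 21.03% and 15.0% in wildtype replicates 1 to 3, so wildtype replicate 2 lay with both replicates 1. Junb held 63.6% to 70.8% of the sum in the labelled knockout and 59.2% to 72.1% in wildtype. The sum itself was 38.4, 67.4 and 48.5 CPM per kilobase in labelled knockout replicates 1 to 3, against 63.9, 60.8 and 51.3 in wildtype replicates 1 to 3. Labelled knockout replicate 1 and wildtype replicate 1, alike in Fos share, were therefore the lowest and the second highest of all libraries in the sum.

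**Figure D3:**
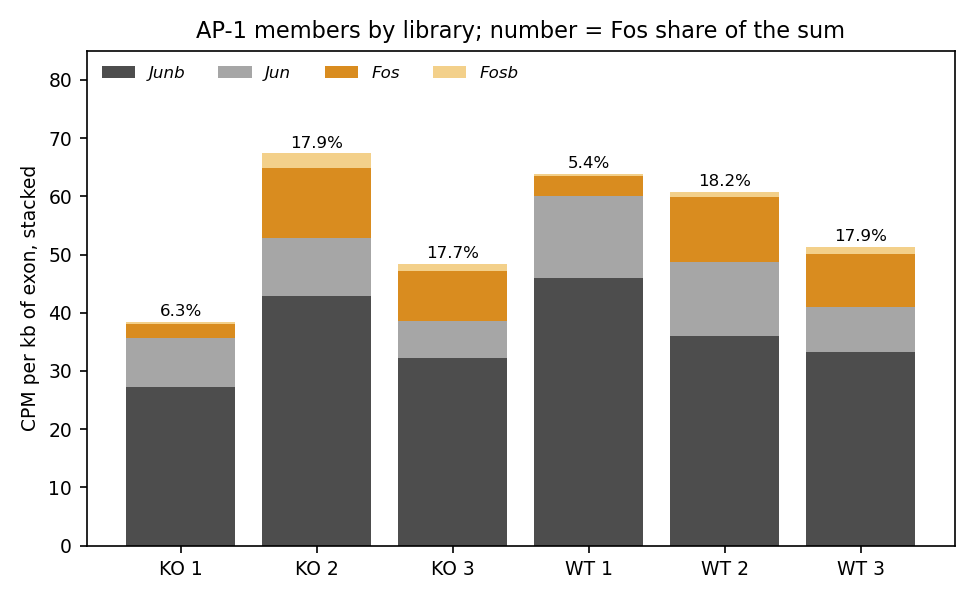
Stacked CPM per kilobase of exon of Junb, Jun, Fos and Fosb in each library (KO is the labelled knockout, WT is wildtype), with the Fos share of the sum printed above each bar. The share is 6.25% and 5.44% in the replicates 1 and 17.7% to 18.2% in the other 4 libraries.

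Both libraries low in Fos and Fosb were those high in Xist. They were also lowest within their genotype in the summed haemoglobin and Alas2 transcripts of red cell precursors (5 of 5 markers detected), at 3.37, 22.9 and 34.2 CPM in labelled knockout replicates 1 to 3 and 9.05, 57.5 and 40.8 CPM in wildtype replicates 1 to 3. This sum was mostly haemoglobin. Alas2 had 14 to 29 counts in each library, and in the labelled knockout it was highest in replicate 1 (0.264 CPM, against 0.167 and 0.201). Macrophage markers (6 of 6 detected) summed to 25.7, 54.9 and 63.2 CPM in the labelled knockout and 52.7, 36.5 and 37.2 CPM in wildtype. Replicate 1, low in Fos, was thus lowest of the labelled knockout and highest of wildtype in these, and likewise in the B cell markers below. Dendritic cell markers (5 of 5 detected) summed to 11.4 to 45.8 CPM and 16.9 to 18.8 CPM, lowest in replicate 1 of each genotype. B cell markers (5 of 5 detected) summed to 26.2 to 53.6 CPM and 38.2 to 45.9 CPM, and neutrophil markers (5 of 5 detected) to 32.9 to 380 CPM and 30.8 to 97.8 CPM, labelled knockout first in each pair. Epithelial markers summed to 8.06 to 10.7 CPM in the labelled knockout and 5.93 to 9.14 CPM in wildtype. Stromal and endothelial markers (5 listed, 4 tested) summed to 123 to 131 CPM in the labelled knockout and 123 to 127 CPM in wildtype, most of it Pecam1. Of these, the pericyte receptor gene Pdgfrb had 7.19, 9.25 and 9.73 CPM in the labelled knockout, against 4.998 to 6.07 CPM in wildtype (edgeR adjusted p = 0.165). The endothelial cadherin gene Cdh5 had 0.677, 0.810 and 2.96 CPM in the labelled knockout, against 0.369 to 0.450 CPM in wildtype (edgeR adjusted p = 0.195). Both were higher in the labelled knockout without overlap, as were 10.9% of all tested genes. The other tested genes of this list, Col1a1 (fold 0.933) and Pecam1 (fold 0.997), were fitted slightly lower and overlapped. The fibroblast receptor gene Pdgfra had 0 to 3 counts in each library. Mitochondrial transcripts held 10.8% to 14.1% of counts in the labelled knockout and 9.55% to 12.4% in wildtype. The part of sex, of these cells or of RNA quality in the Fos and Fosb values was not tested.

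The receptor-signal genes and the AP-1 genes were also set against each other within each library, by the mean log2 CPM of each group's 4 genes after subtraction of the mean over the 6 libraries. The receptor-signal score was -0.20, 0.07 and -0.30 in labelled knockout replicates 1 to 3, against 0.21, 0.01 and 0.21 in wildtype replicates 1 to 3. The AP-1 score was -0.84, 0.66 and 0.02, against -0.27, 0.33 and 0.11 in wildtype. Labelled knockout replicate 2 stood within the wildtype range of the receptor-signal score and above all wildtype libraries in the AP-1 score. The difference between the scores was 0.64, -0.60 and -0.32 in the labelled knockout and 0.48, -0.31 and 0.10 in wildtype, so it was highest in replicate 1 of each genotype and overlapped between genotypes. The median log2 fold of the 4 AP-1 genes was -0.11, and it ran from -0.44 without labelled knockout replicate 2 to 0.18 without labelled knockout replicate 1.

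**Figure D4:**
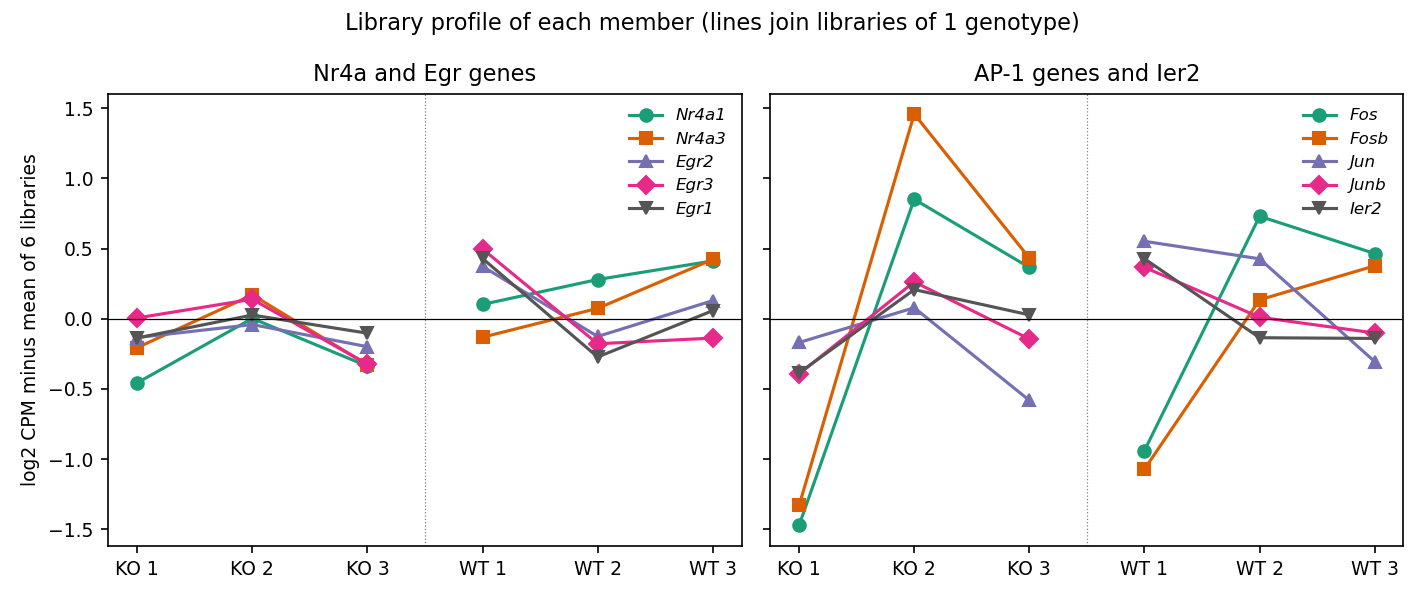
log2 CPM of each gene minus its mean over the 6 libraries (vertical axis), for Nr4a and Egr genes on the left and for AP-1 genes and Ier2 on the right, with lines joining the libraries of 1 genotype (KO is the labelled knockout, WT is wildtype). Fos and Fosb are lowest within each genotype in KO 1 and WT 1, where Jun, Junb and Ier2 are higher in WT 1 than in KO 1.

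Similarity of pattern was measured as the root mean square difference of these centred log2 values over the 6 libraries, a description that holds genotype and library effects together. Among the members, Egr1 and Egr2 were most alike (0.09), followed by Ier2 and Junb (0.10) and by Egr1 and Egr3 (0.15). Nr4a1 was nearest to Nr4a3 (0.18). Fos was nearest to Fosb (0.36) and stood 0.77 or more from each of the other 8 genes, 1.01 from Jun. Outside the members, 9201 tested genes had a mean of at least 10 CPM. The 4 of these nearest to Nr4a1 were Ppp1r13b, which encodes a p53-binding protein (0.08), the RNA-binding factor gene Arid5a (0.09), the ADP-ribosyltransferase gene Tiparp (0.09) and the signalling adaptor gene Traf4 (0.09). The 4 nearest to Fos were the acid phosphatase gene Acpp (0.53), the messenger RNA decay factor gene Zfp36l2 (0.54), the interferon-inducible GTPase gene Gvin1 (0.57) and the gene model Gm4070 (0.57). None of these 4 came as close to Fos as Fosb did. Gm4070 lay just below Gvin1 in every library, such as 20.3 and 21.4 CPM in labelled knockout replicate 1 and 42.6 and 45.1 CPM in wildtype replicate 3. Whether these genes share reads was not tested.

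Genes around the members in the same pathway were read from lists chosen with earlier results of these data known. Of 20 other genes induced by the T cell receptor, 13 were fitted lower and 7 higher, and 0 passed edgeR's adjusted test over all genes, with 4 lower and 0 higher at an unadjusted p under 0.05, beside 6.6% and 8.01% of all tested genes. The median log2 fold was -0.10, and 48.8% of all tested genes were fitted lower. Cd5, a dampener of receptor signals, had 219, 234 and 218 CPM in labelled knockout replicates 1 to 3, against 309, 262 and 274 CPM in wildtype replicates 1 to 3, without overlap (edgeR adjusted p = 0.193). Nab2, a corepressor that binds EGR factors, was at 38.6 ± 4.90 CPM in the labelled knockout and 49.3 ± 3.92 CPM in wildtype (adjusted p = 0.211). The NF-kB inhibitor Nfkbid was at 31.5 ± 3.67 and 39.9 ± 0.975 CPM and Bcl2l11, the death inducer Bim, at 50.4 ± 4.91 and 61.6 ± 4.78 CPM (adjusted p = 0.206 and 0.253, labelled knockout first, SD, n = 3 each). Groups without overlap, all lower in the labelled knockout, were found in 6 of the 20, beside 9.38% of all tested genes. Id3, an EGR target, was at 74.6 ± 12.4 CPM in the labelled knockout and 74.2 ± 9.14 CPM in wildtype (SD, n = 3 each; edgeR adjusted p = 0.986).

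The receptor-proximal genes (receptor chains, kinases, adaptors and other signalling proteins) were all fitted lower: 17 of 17, with 8 at an unadjusted p under 0.05, 10 without overlap and 0 past edgeR's adjusted test. Of all tested genes, 48.8% were fitted lower, 6.6% were lower at an unadjusted p under 0.05 and 9.38% were lower without overlap. The median log2 fold was -0.24. Lat, the membrane scaffold, was at 668 ± 54.8 CPM in the labelled knockout and 862 ± 70.4 CPM in wildtype (SD, n = 3 each; edgeR adjusted p = 0.198). The list of thymocyte markers, which shares Cd3e with the receptor-proximal list, also leaned lower. Of its 13 genes, 11 were fitted lower and 8 were lower without overlap (48.8% and 9.38% of all tested genes), and the median log2 fold was -0.20. Trac, the constant gene of the receptor alpha chain, had 316, 393 and 351 CPM in labelled knockout replicates 1 to 3, against 467, 468 and 474 CPM in wildtype replicates 1 to 3 (edgeR adjusted p = 0.154). Among markers of single-positive cells 3 of 7 were fitted lower, and the median log2 fold was 0.04. Zbtb7b, the factor of the CD4 lineage, was at 28.1 ± 3.26 CPM in the labelled knockout and 39.7 ± 4.83 CPM in wildtype (edgeR adjusted p = 0.151).

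Of 17 listed kinases and factors that act on immediate early promoters, 15 matched a symbol of the annotation (Mkl1 and Mkl2 did not), 13 were fitted lower and 0 passed edgeR's adjusted test, with 2 lower at an unadjusted p under 0.05, beside 6.6% of all tested genes. Their median log2 fold was -0.13. Mef2d, which binds the Nr4a1 promoter, was at 285 ± 19.6 CPM in the labelled knockout and 359 ± 30.5 CPM in wildtype (adjusted p = 0.208), and the calcineurin-dependent factor Nfatc2 at 22.9 ± 1.03 and 27.5 ± 0.716 CPM (adjusted p = 0.255, SD, n = 3 each). Srf, the factor of the CArG box, was at 63.5 ± 7.79 CPM in the labelled knockout and 68.2 ± 3.81 CPM in wildtype (edgeR adjusted p = 0.700). In 20 tested genes of the general early and stress response, of 22 listed, 14 were fitted lower and 0 passed edgeR's adjusted test, with 4 at an unadjusted p under 0.05, all lower, beside 6.6% of all tested genes. Their median log2 fold was -0.17. Without overlap, 5 of these 20 were lower and 1 higher, and of the 15 kinases and factors 3 were lower and 0 higher. Of all tested genes, 9.38% were lower and 10.9% higher without overlap, and 48.8% were fitted lower. Dusp1, the phosphatase that switches off stress kinases, was at 26.7 ± 7.76 CPM in the labelled knockout and 25.8 ± 2.54 CPM in wildtype (edgeR adjusted p = 0.926). Egr4 and Fosl1 had 0 to 16 counts in each library and were not tested.

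**Figure D5:**
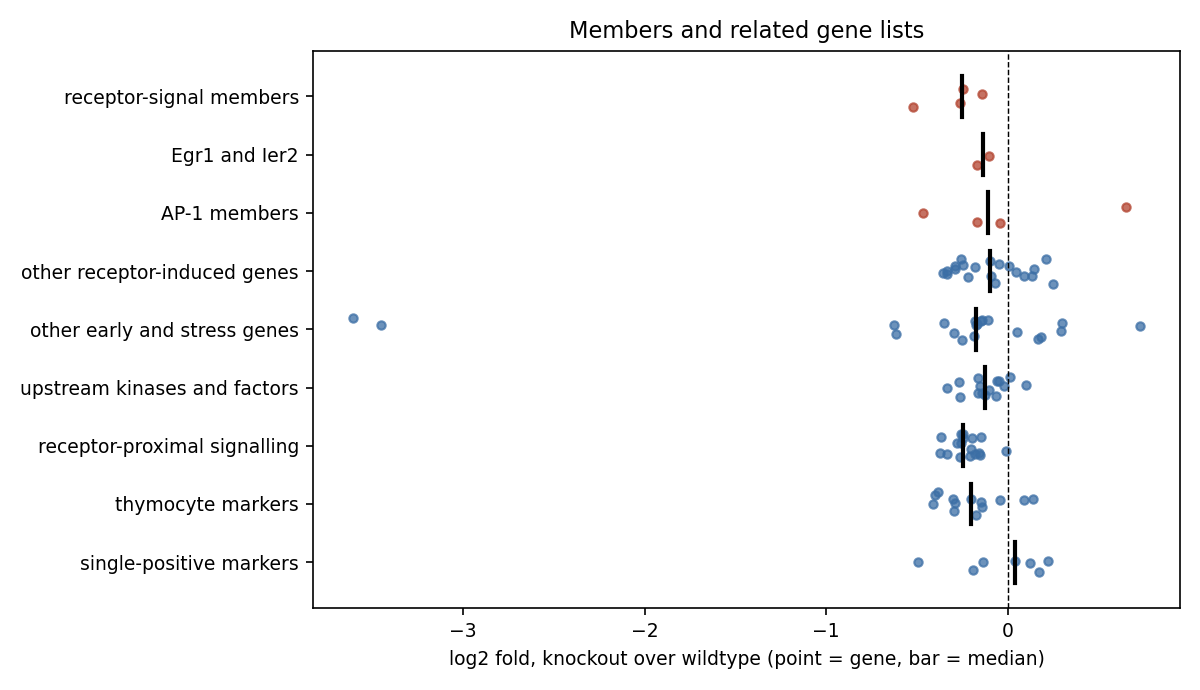
log2 fold of each gene, labelled knockout over wildtype (horizontal axis), in the 3 groups of members (red) and in related gene lists (blue), with black bars at the medians. The medians are -0.25 for the receptor-signal genes, -0.11 for the AP-1 genes and -0.24 for the receptor-proximal genes, and the 2 points far to the left are Hspa1a and Hspa1b.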

How the data were processed

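RNA was isolated with a NucleoSpin column and made into TruSeq Stranded mRNA libraries, per the labels' protocols. The submitters' processing notes list STAR 2.5.4b, featureCounts and GRCm38. Annotation release, strand setting and the handling of reads with several matches are not stated there. The authors deposited raw counts per Ensembl gene, 1 column per library, and all 55536 identifiers matched GENCODE M21, which gave symbols, positions and exon lengths.

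Genotypes were compared with edgeR 4.0.16 (R 4.3.3) after filterByExpr, TMM scaling, robust dispersions and glmQLFTest, with no covariate and Benjamini-Hochberg adjustment at 0.05 over all tested genes. Intervals at 95% are the log2 fold plus or minus a t quantile times its standard error. Centred log2 CPM used a prior count of 0.5. Alternatives were DESeq2 1.42.0, limma-voom (limma 3.58.1), other scalings and filters, a replicate block and the omission of libraries. The test was tried on simulated counts. No 2 libraries of 1 genotype matched within counting error (chi-square over its degrees of freedom 41.2 or more).

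The members and lists were chosen with earlier results of these data known. All 10 members are named; from each list up to 4 genes of smallest unadjusted p were eligible, and for pattern the 4 nearest genes of at least 10 CPM. Nr4a2, Id3, Srf, Dusp1, Dnajb1, Egr4, Fosl1 and Ddx3y were named after their values were seen.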

Additional observations from a re-analysis of the deposited data

How the results depend on the processing

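Across 15 alternatives, Nr4a1, Nr4a3, Egr2 and Jun stayed lower in the labelled knockout. Of the 10 members, 1 passed by DESeq2 (Nr4a1), 2 without the filter on low counts (Nr4a1 and Jun), 1 without replicate 1 of both genotypes (Nr4a1), and 0 under each of the other 12 alternatives. Over all genes, 587 of 33265 passed by DESeq2, 840 of 33265 without the filter and 762 of 19127 without replicate 1 of both genotypes. With the replicate block 9 of 18690 passed, against 17 of 18690 in the fit used above. Leaving out 1 library at a time gave 8 (without wildtype replicate 2) to 29 (without labelled knockout replicate 1). Without replicate 1 of both genotypes the log2 folds of Egr3, Egr1, Ier2, Fos and Junb changed sign, to 0.085, 0.061, 0.26, 0.026 and 0.12. Leaving out 1 library at a time, log2 folds ran from -0.25 to 0.11 for Egr3, from -0.32 to 0.029 for Egr1, from -0.23 to 0.11 for Ier2, from -0.52 to 0.38 for Fos and from -0.13 to 1.102 for Fosb. The cause of these changes was not tested. The replicate numbers are shared by the genotypes, but same-numbered libraries did not deviate together over all genes (r = -0.11, 0.03 and -0.12 across genes for numbers 1 to 3). Number 1 joins the libraries high in Xist, so the replicate block also sets these apart. With that block edgeR called 0 members, and Nr4a1 had a log2 fold of -0.53 (adjusted p = 0.206). With 3 libraries a genotype, the spread between mice and not the counts per gene limits the members.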

Other observations

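The inducible heat shock genes Hspa1a and Hspa1b followed the order of Fos in the wildtype libraries but not in those of the labelled knockout. Hspa1a, an inducible chaperone gene, had 3.24, 1.54 and 1.31 CPM in labelled knockout replicates 1 to 3, against 5.57, 49.0 and 11.4 CPM in wildtype replicates 1 to 3. Its near copy Hspa1b had 4.79, 2.002 and 1.77 CPM, against 8.27, 77.8 and 17.3 CPM in wildtype. With copies this alike, the count of each is uncertain. The genotypes did not overlap, but neither gene passed edgeR's test over all genes (adjusted p = 0.290 and 0.295), and wildtype replicate 2 held most of the signal. That library was also the highest of wildtype in Fos (26.0 CPM). In the labelled knockout, replicate 1 was highest in both heat shock genes and lowest in Fos (5.65 CPM). A link between these genes and Fos was not tested. Dnajb1, a cochaperone gene, had 90.6, 127 and 128 CPM in labelled knockout replicates 1 to 3, against 106, 159 and 177 CPM in wildtype replicates 1 to 3 (edgeR adjusted p = 0.463), and was lowest in replicate 1 of each genotype, as Fos was. Zfp36, which speeds decay of immediate early messages, had 123, 144 and 114 CPM in labelled knockout replicates 1 to 3, against 163, 159 and 145 CPM in wildtype replicates 1 to 3, and Btg2, an antiproliferative early gene, had 336, 339 and 337 CPM, against 413, 399 and 392 CPM in wildtype. Neither passed edgeR's adjusted test (adjusted p = 0.245 and 0.257).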
